A study of Mus musculus with 2 samples.

Results

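The genes described here are a set of 39 cell cycle genes, read here in single stromal cells from mouse marrow. They were chosen by name and split by role. There are 14 replication genes (Mcm2 to Mcm7, Pcna, Tyms, Rrm1, Rrm2, Ccne1, Ccne2, Hells and Uhrf1). There are 20 mitosis genes (Mki67, Top2a, Cdk1, Ccnb1, Ccnb2, Ccna2, Birc5, Ube2c, Cenpa, Cenpe, Cenpf, Cdc20, Plk1, Aurka, Aurkb, Bub1, Tpx2, Nusap1, Kif11 and Prc1). The other 5 are regulators: the D cyclins Ccnd1, Ccnd2 and Ccnd3 and the inhibitors Cdkn1a and Cdkn1b. Of the 39 names, 38 matched a column of the count table, which has 25289 genes, and Mki67 was not analysed here. The cells came from crushed femurs, tibiae and pelvis of mice labelled strain C56BL/6 and aged 8 to 16 weeks, and were sorted as viable and negative for CD45, Ter119 and CD31. They were read by inDrops, a droplet method that gives each cell a barcode. All cells belong to 1 untreated group. It has 2 samples: libraries 1.1 and 1.2 make up Stroma1, and libraries 2.1, 2.2 and 2.3 make up Stroma2. Whether separate animals gave the samples is not stated in the labels. With a term for sample, p-values measure only how group differences vary between these 2 samples, with the spread estimated partly across genes. That variation may be technical.

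A dividing cell copies its DNA in S phase and separates the copies in mitosis. The MCM helicase opens the DNA, Pcna clamps the polymerase onto it, and Tyms, Rrm1 and Rrm2 supply its building blocks. Cyclin B with Cdk1 then drives entry into mitosis, where kinesins, centromere proteins and the Aurora and Polo kinases move the chromosomes. D cyclins pass growth signals to the cycle before S phase, while Cdkn1a (p21) and Cdkn1b (p27) hold it back. In marrow, blood precursors divide often, whereas most of the stroma, which supports them and makes bone and fat cells, is known to divide rarely.

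The authors' filter passed 948 cells of Stroma1 and 1899 of Stroma2, with medians of 1524 and 1324 counts per cell, and gave each 1 of 7 classes. It did not pass 585 and 1675 rows, with medians of 2404 and 2145 counts, and 2232 and 7689 rows carried no filter label. Over all passing cells the stromal marker Cxcl12 stood at 50110 and 33294 CPM (counts scaled to a total of 1000000) in Stroma1 and Stroma2. In not passing rows it stood at 1320 and 1069. The classes differed: 10 stromal markers summed to 86348 and 87788 CPM in MSC and to 2430 and 875 in Pro-osteoblast. In not passing rows these 10 summed to 1916 and 1470 CPM. The blood cell gene Ptprc, which encodes CD45, had 2 and 12 counts in all passing cells. Libraries of a sample shared barcodes: 6.75% of the passing rows of Stroma1 and 22.9% of those of Stroma2 had the barcode of another row in the sample, and for not passing rows the shares were 15.7% and 38.9%. With each barcode counted once, the mitosis sums were 1159 and 548 CPM in Pre-osteoblast/chondrocyte, 48.8 and 62.1 in MSC, 101.2 and 81.9 in all passing cells and 2958 and 2830 in not passing rows, all near the values over all rows given below. The replication sums were then 79.0 and 71.7 CPM in Pro-osteoblast and 183.9 and 225 in MSC. The classes are the authors' own and may rest on the genes compared.

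The mitosis genes were highest in 1 small class. Summed over the 19 genes, Pre-osteoblast/chondrocyte cells held 1159 CPM in Stroma1 (64 counts, exact Poisson 95% interval 893 to 1480) and 518 CPM in Stroma2 (62 counts, 397 to 664). MSC, the large class of mesenchymal stem or stromal cells, held 48.0 and 61.4 CPM. The ratio of these sums was 24.2 in Stroma1 and 8.43 in Stroma2. Osteoblast progenitor cells held 142.5 and 154.2 CPM, but 1 cell gave 25 of the 34 counts in Stroma1 and another 21 counts in Stroma2. Without these 2 cells the class held 38.5 CPM in Stroma1, below MSC, and 101.2 in Stroma2. Adipocyte progenitor (53.2 and 56.8), Pre-adipocyte (48.2 and 83.7) and Pro-osteoblast cells (53.4 and 45.5) lay near MSC, with intervals that overlapped those of MSC in the same sample. Pro-chondrocyte, with 4 and 10 cells, held 0 mitosis counts, which allows up to 835 and 315 CPM. Intervals cover counting error only.

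The replication genes ordered the classes otherwise. Their 14-gene sum was lowest in Pro-osteoblast cells, a mature bone class, at 80.1 and 73.1 CPM of raw totals. That order depends on the measure: the share of cells with 2 or more replication counts was 7.14% and 5.25% in Pro-osteoblast, with medians of 4422 and 4201 counts per cell, and 3.98% and 6.01% in MSC, with medians of 1378 and 1160. With each cell thinned to 500 counts the shares were 0.207% and 0.465% in Pro-osteoblast, 0.583% and 1.20% in MSC, 1.21% and 1.52% in Adipocyte progenitor, 2.13% and 1.05% in Osteoblast progenitor, 2.58% and 2.06% in Pre-adipocyte, and 4.34% and 3.18% in Pre-osteoblast/chondrocyte. At 1000 counts the lead of Pre-osteoblast/chondrocyte was not kept. It had 2.20% and 4.945%, against 4.38% and 7.91% in Pre-adipocyte and 4.77% and 2.93% in Adipocyte progenitor. Unthinned, Pre-osteoblast/chondrocyte had 16.0% and 9.09% and Pre-adipocyte 16.7% and 13.8%. In MSC the sum was 183.7 and 229 CPM, in Osteoblast progenitor 302 and 224, in Adipocyte progenitor 263 and 250, and in Pre-adipocyte 353 and 353. Pre-osteoblast/chondrocyte stood at 289.8 CPM (16 counts) and 426 CPM (51 counts), 1.58 and 1.86 times MSC. This class had 4.00 and 1.22 mitosis counts per replication count, where MSC had 0.261 and 0.268, Osteoblast progenitor 0.472 and 0.690, and Pro-osteoblast 0.667 and 0.623. Without the cells of over 20 mitosis counts described next, its ratio was 0.667 and 0.627, at the level of Pro-osteoblast. That of Osteoblast progenitor was then 0.164 and 0.591.

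**Figure D1:**
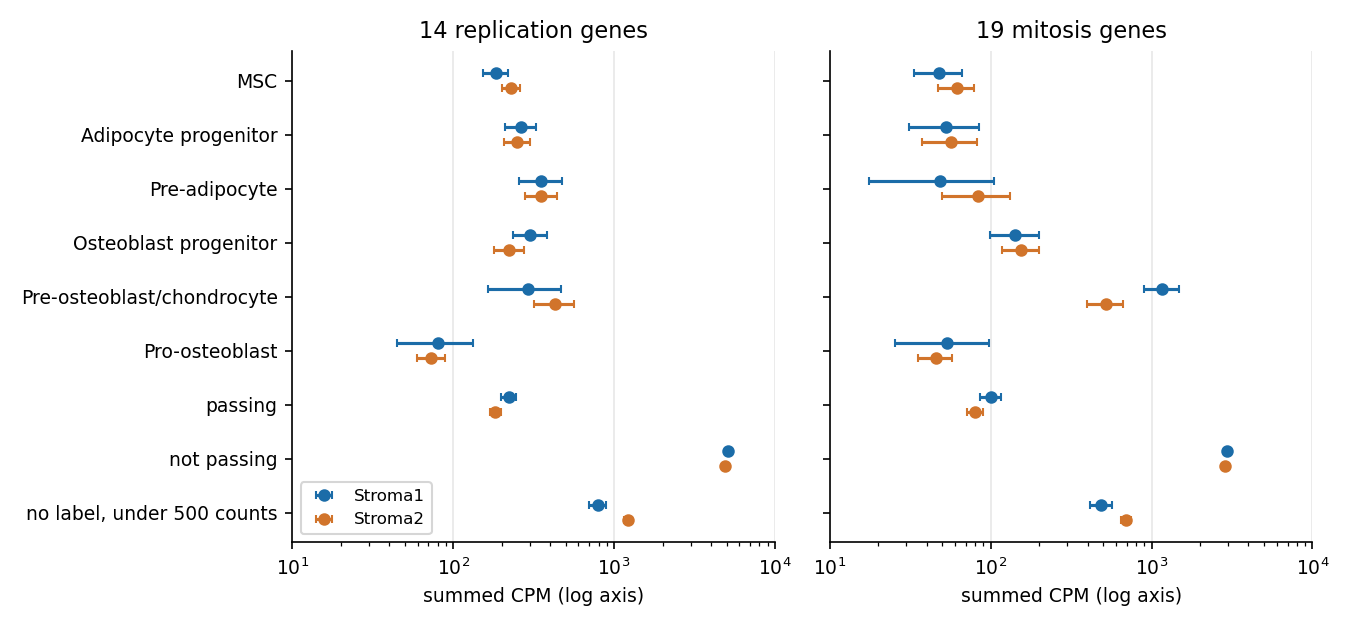
Summed CPM (log axis) of the 14 replication genes and the 19 mitosis genes in each authors' class, in all passing and not passing rows and in rows without a filter label under 500 counts; points are the samples and bars are exact Poisson 95% intervals. Mitosis sums of Pre-osteoblast/chondrocyte cells (1159 and 518 CPM) lie above the other classes, and not passing rows lie higher still (2956 and 2863 CPM).

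Few cells carried these counts. In Pre-osteoblast/chondrocyte, 3 of 25 cells of Stroma1 (12%, exact Clopper-Pearson 95% interval 2.55 to 31.2%) and 6 of 66 of Stroma2 (9.09%, 3.41 to 18.7%) had 2 or more mitosis counts. These cells held 98.4% and 88.7% of the class's mitosis counts. Their counts were 56, 4 and 3 in Stroma1 and 30, 7, 7, 6, 3 and 2 in Stroma2. In MSC, 4 of 502 (0.797%) and 7 of 815 cells (0.859%) had 2 or more, and the most in 1 cell was 4. In Pre-adipocyte, 0 of 66 and 0 of 145 cells did. With each cell thinned to 500 counts, the share was 8.03% and 4.92% in Pre-osteoblast/chondrocyte and 0.0996% and 0.107% in MSC.

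Only 4 of the 2847 passing cells had over 20 mitosis counts, a threshold chosen after the values were seen. They held 132 of the 462 mitosis counts of all passing cells (28.6%), while 2597 passing cells (91.2%) had 0. The cell with 56 counts (library 1.2, 5036 counts in all) carried 13 of the 19 genes, among them Ube2c with 10, Cdk1 with 9, Birc5 and Cenpa with 6 each, and Ccnb1 and Ccnb2 with 5 each. It held 4 replication counts, 567 counts of the 10 osteoblast markers and 0 of blood and endothelial markers. The cell with 30 counts (library 2.3) also carried 13 mitosis genes, with 0 replication counts, 57 osteoblast and 0 blood or endothelial marker counts. The other cells, with 25 and 21 mitosis counts, were Osteoblast progenitor cells of libraries 1.2 and 2.2. They held replication counts as well, 17 and 21, and 2 and 0 blood or endothelial marker counts. So the first pair had mitosis transcripts nearly alone and the second pair both kinds. None of the 4 was called a doublet by Scrublet, which called 94 of 5107 rows.

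**Figure D2:**
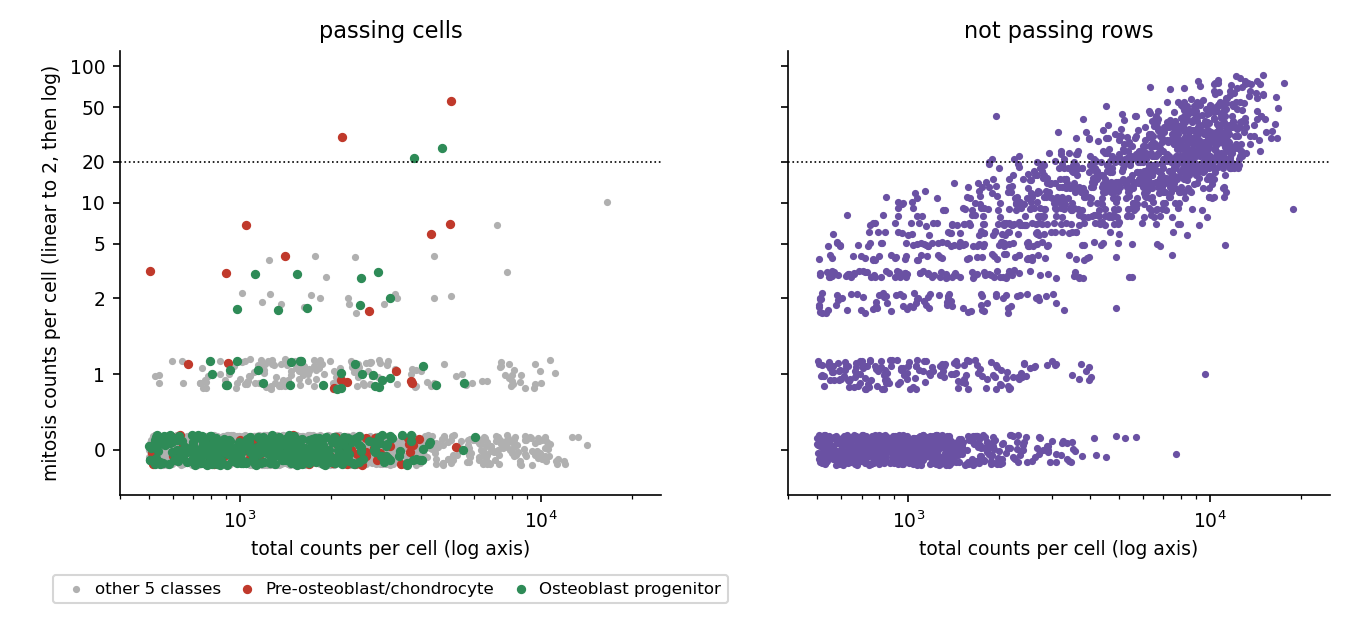
Mitosis counts per cell (linear to 2, then log, points spread slightly to show ties) against total counts per cell (log axis) in passing cells, coloured by class, and in not passing rows; the dotted line is at 20 counts. Of the passing cells 4 lie above the line, 2 of them Pre-osteoblast/chondrocyte and 2 Osteoblast progenitor, against 489 of 2260 not passing rows.

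Of the 38 members, 15 passed the filter on low counts in the test between classes, 5 of each list. A gene passed when 2 of the 12 sums of class and sample reached 35.8 CPM. In 8 members only Pre-osteoblast/chondrocyte gave the 2 sums needed (Tyms, Rrm1, Top2a, Cdk1, Ccnb2, Birc5, Ube2c and Ccnd1), so they had to be high there, and their values in this class are a description with no test. Each class was set against the mean of the other 5 with edgeR's quasi-likelihood test and Benjamini-Hochberg adjustment over 6229 genes, with Pro-chondrocyte left out. In Pre-osteoblast/chondrocyte, 7 of the 15 were called higher and 0 lower, where 6.92% of all genes were called higher and 5.19% lower. They were the 5 mitosis genes and Ccnd1, which the filter had fixed, and Ccnd2, so nothing is read from that count.

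Ube2c, which loads ubiquitin onto cyclins at the end of mitosis, had 11 and 10 counts in Pre-osteoblast/chondrocyte (199 and 83.5 CPM) against a mean of 4.51 and 10.9 CPM over the other classes. Cdk1, the mitotic kinase, had 9 and 7 counts (163 and 58.5 CPM against 6.20 and 7.11). Birc5 (survivin), a part of the chromosome passenger complex, had 6 and 7 counts (108.7 and 58.5 CPM against 8.89 and 7.46), and Top2a, which untangles DNA, 4 and 6 (72.4 and 50.1 CPM against 5.09 and 4.14). Ccnb2, a mitotic cyclin, had 6 and 5 counts (108.7 and 41.8 CPM against 2.50 and 4.64), and 0 in Pre-adipocyte and Pro-osteoblast. The cell with 56 mitosis counts alone gave 10 of the 11 Ube2c, 9 of the 9 Cdk1 and 5 of the 6 Ccnb2 counts of Stroma1. Without the 4 cells with over 20 mitosis counts, none of the 19 mitosis genes passed the filter and of the members Ccnd1 and Ccnd2 were called higher. The mitosis sum of the class was then 159.4 CPM in Stroma1 and 272 in Stroma2. By library the class held 4 mitosis counts in 1.1, 60 in 1.2, 4 in 2.1, 24 in 2.2 and 34 in 2.3, from 14, 11, 19, 27 and 20 cells. With each barcode counted once, the mean share of its cells with 2 or more was 10.9%, against 10.55% in all cells. B-lineage markers had 0 and 2 counts in the class, erythroid markers 3 and 3, myeloid markers 9 and 7, and endothelial markers 2 and 5. Without cells of 2 or more blood or endothelial marker counts, 21 and 62 of its cells remained.

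The replication genes gave few calls between classes. None of the 5 tested (Mcm4, Mcm7, Pcna, Rrm1 and Tyms) was called in Pre-osteoblast/chondrocyte. Pcna was the exception elsewhere. Its level was 209 and 144.1 CPM in Pre-adipocyte, 35.7 and 40.0 in MSC and 5.34 and 11.0 in Pro-osteoblast. It rose in Pre-adipocyte by 2.07 ± 0.31 on the log2 scale (adjusted p = 6.7e-08, edgeR) and fell in Pro-osteoblast by 1.60 ± 0.41 (adjusted p = 0.000875, edgeR). Its call in MSC (log2 fold change −0.87 ± 0.30, adjusted p = 0.0241, edgeR) was lost in 5 of the other settings, where adjusted p lay between 0.0702 and 0.195. The helicase gene Mcm4 was not called in any class. It had 0 and 1 counts among 55218 and 119724 in Pre-osteoblast/chondrocyte and 0 and 8 among 187228 and 1450797 in Pro-osteoblast. In MSC it had 22 and 45 among 729261 and 1026121. With totals this unlike, the counts are not levels.

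Among the D cyclins, Ccnd1 had most of its counts in 1 class. Of its 33 and 66 counts in passing cells, 21 and 38 lay in Pre-osteoblast/chondrocyte, which holds 25 and 66 cells. That is 380 and 317 CPM, against 33.5 and 17.99 in Osteoblast progenitor, 5.34 and 13.1 in Pro-osteoblast, 4.11 and 0.975 in MSC, and 0 counts in Pre-adipocyte. This gene too passed the filter through Pre-osteoblast/chondrocyte alone, so these levels are given without a test. Ccnd2 was present in all 6 classes and highest in the same one, at 380 and 401 CPM against 100.1 and 100.4 in MSC. It rose there by 1.43 ± 0.25 (adjusted p = 4.95e-06, edgeR) and fell in MSC by 1.15 ± 0.19 (adjusted p = 8.75e-07, edgeR). Osteoblast progenitor lay between, at 218 and 193 CPM. The class means of Ccnd3 ran from 41.4 ± 1.9 CPM (SD, n = 2) in Pro-osteoblast to 163 ± 13.4 in MSC, and it was called in Pro-osteoblast alone (log2 fold change −0.73 ± 0.27, adjusted p = 0.0252, edgeR), a call lost without the filter on low counts (adjusted p = 0.112, edgeR).

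Pro-osteoblast calls depend on the scaling. Library sizes alone, a setting chosen after seeing the data, moved the median log2 fold change of all genes in that class from 0.03 to −1.03, and changed its calls from 1333 higher and 1116 lower to 433 and 3494. Under TMM scaling 2 of 15 members were called higher (Ccnd1 and Ccnd2) and 2 lower (Ccnd3 and Pcna), where 21.4% and 17.9% of all genes were called. The fit averages the other classes on the log scale. The Ccnd1 call goes against the CPM, 5.34 and 13.1 in Pro-osteoblast against means of 83.6 and 67.7 over the other classes, of which Pre-adipocyte is at 0. It was lost with each barcode counted once (adjusted p = 0.0626, edgeR) and with library sizes alone (adjusted p = 0.259, edgeR). The Ccnd2 call likewise stood against 85.5 and 124 CPM in the class and 188 and 192 over the others. Under library sizes alone 0 were called higher and 8 lower. Ccnd2 turned from 0.50 to −0.56 on the log2 scale, so no direction is given for either D cyclin in this class. The split of calls moved elsewhere too: from 696 higher and 590 lower to 1747 and 316 in MSC, from 707 and 250 to 990 and 129 in Adipocyte progenitor, from 373 and 197 to 959 and 86 in Osteoblast progenitor, and from 431 and 323 to 521 and 244 in Pre-osteoblast/chondrocyte. The medians of all genes in these 4 classes were then 0.40, 0.24, 0.39 and 0.08. Osteoblast markers took 214450 and 214218 CPM of the Pro-osteoblast counts, and their part in the scaling was not tested.

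The inhibitor Cdkn1a was highest in the fat lineage. Its level was 786 and 1125 CPM in Pre-adipocyte, 410 and 372 in Adipocyte progenitor, 289.8 and 426 in Pre-osteoblast/chondrocyte, 208 and 153 in Pro-osteoblast, 159.3 and 146.5 in Osteoblast progenitor, and 82.3 and 69.2 in MSC. Neighbouring classes in this order differed by little at its low end, where the samples of Pro-osteoblast and Osteoblast progenitor overlapped, and Adipocyte progenitor overlapped Pre-osteoblast/chondrocyte. Cdkn1a rose in Pre-adipocyte by 2.29 ± 0.15 (adjusted p = 6.83e-24, edgeR), fell in MSC by 2.48 ± 0.18 (adjusted p = 7.07e-21, edgeR), and fell in Osteoblast progenitor by 1.22 ± 0.19 (adjusted p = 6.77e-07, edgeR). In Adipocyte progenitor its log2 fold change was 0.56 ± 0.15 (adjusted p = 0.00443, edgeR), and DESeq2 gave an adjusted p of 0.0867. Cdkn1b was not called in any class: its means ran from 20.5 CPM in Pro-osteoblast to 77.9 in Osteoblast progenitor. In counts of calls, Pre-adipocyte had 2 of 15 members higher and 0 lower, where 14.4% and 6.31% of all genes were. MSC had 0 higher and 3 lower, where 11.2% and 9.47% were. Adipocyte progenitor had 1 higher and 0 lower, where 11.4% and 4.01% were, and Osteoblast progenitor 0 higher and 1 lower, where 5.99% and 3.16% were.

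**Figure D3:**
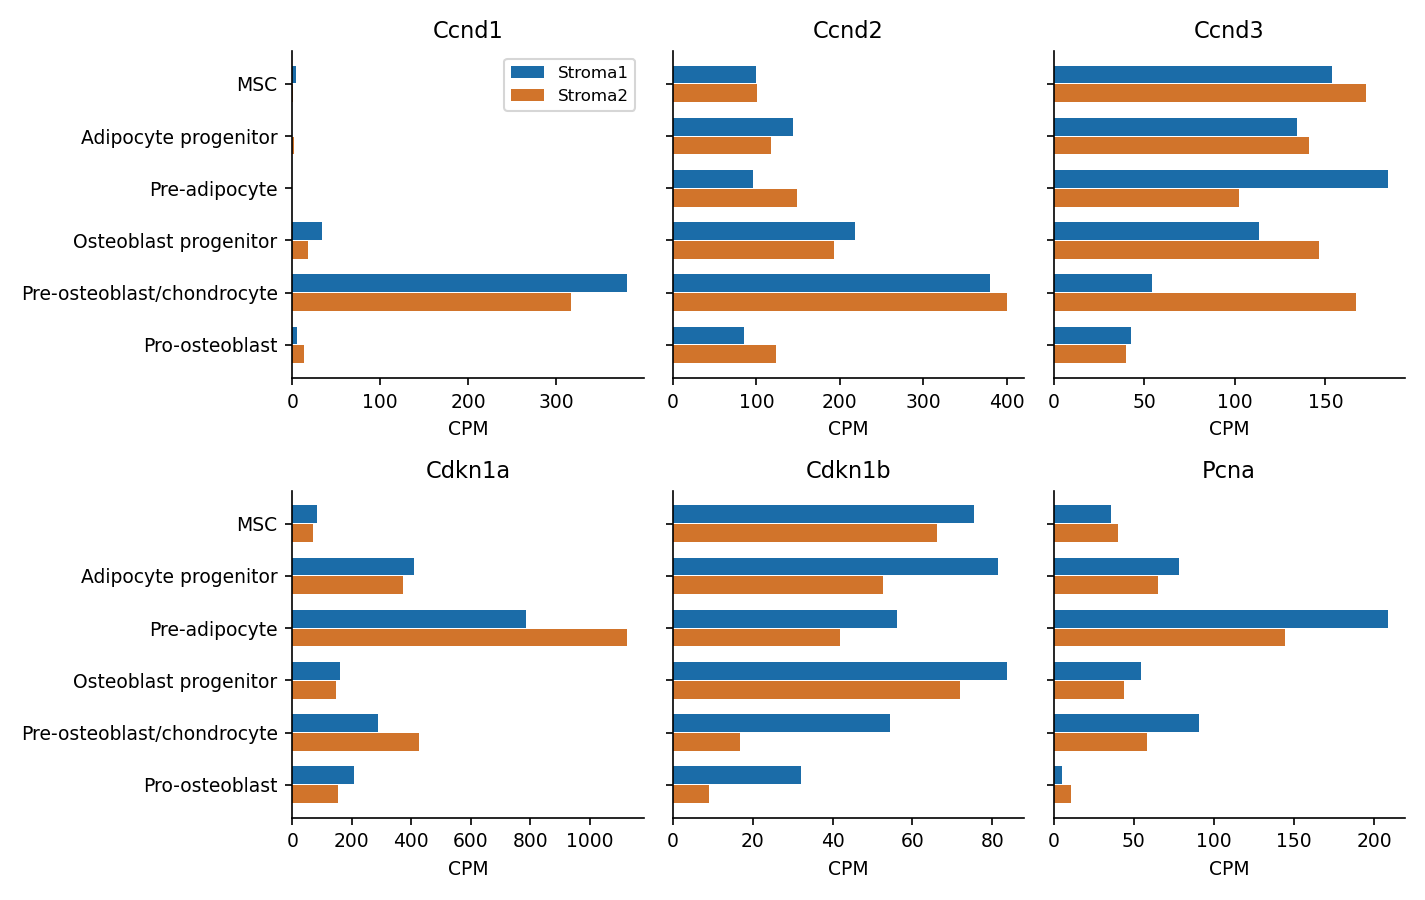
CPM of the 5 regulators and of Pcna in the 6 classes tested, 1 bar for each sample, with a separate linear axis from 0 for each gene. Ccnd1 stands at 380 and 317 CPM in Pre-osteoblast/chondrocyte and at most 33.5 elsewhere, and Cdkn1a is highest in Pre-adipocyte at 786 and 1125 CPM.

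Further cell cycle genes from longer lists moved as follows. Of 13 other mitosis genes tested, 6 were called higher in Pre-osteoblast/chondrocyte, where 6.92% of all genes were, but 3 of the 6 (Cdca3, Smc4 and Ckap2l) passed the filter through that class alone. The tubulin regulator Stmn1 (log2 fold change 2.09 ± 0.47) and Cks2, a partner of Cdk1 (1.84 ± 0.40), did not. In MSC, 6 of these 13 were called lower, where 9.47% of all genes were, with Cks2 at −2.10 ± 0.33 and Stmn1 at −1.76 ± 0.40. In Pre-adipocyte, 5 of 13 were called higher, where 14.4% of all genes were, with Cks2 at 2.33 ± 0.30 and Hmgb2, a chromatin protein, at 1.88 ± 0.25. The members Cdk1, Birc5 and Top2a had 2, 2 and 1 counts in the Pre-adipocyte cells of both samples together. Among 18 other regulators, 8 were called higher in Pre-adipocyte (14.4% of all genes), led by Myc (3.50 ± 0.15) and the antiproliferative gene Btg2 (3.30 ± 0.17). Of these 8, Wee1 passed the filter through Pre-adipocyte and Pre-osteoblast/chondrocyte together, with neither class enough alone. In MSC, 5 of the 18 were called lower (9.47% of all genes), led by Myc (−1.86 ± 0.20) and Btg1 (−1.52 ± 0.13). Gadd45b, a stress gene, rose in Adipocyte progenitor by 2.14 ± 0.11 and in Pre-adipocyte by 2.86 ± 0.12. Of 7 other replication genes, 2 rose in Pre-adipocyte, the histone chaperone Nasp (2.51 ± 0.28) and the histone mRNA binding protein Slbp (1.65 ± 0.23), against 14.4% of all genes. Another 3 were called higher in Pre-osteoblast/chondrocyte. Lig1 and 2810417H13Rik had passed the filter through that class alone, and Tk1 through it and Osteoblast progenitor together. Directions here are edgeR calls at an adjusted p under 0.05.

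The authors also placed cells on 3 differentiation paths, by a pseudotime from 0 to 1 that may rest on the same genes. Each path was divided into 3 equal parts of this scale. The first part was almost wholly MSC. Mitosis sums there ran from 30.9 to 54.8 CPM over paths and samples. At the end of the chondrocyte path the mitosis sum was 302 CPM in Stroma1 (106 counts) and 214 in Stroma2 (130 counts), and at the end of the adipocyte path 48.1 and 68.4. All 4 cells with over 20 mitosis counts lie at the end of the chondrocyte path, and without them the sum there was 73.3 CPM in Stroma1 (25 counts) and 131.2 in Stroma2 (79 counts). At the end of the osteoblast path it was 138.6 and 89.5 CPM, and 67.3 and 60.5 without these cells. The osteoblast path ended in different classes, with 62.5% Osteoblast progenitor cells among 136 in Stroma1 and 60.3% Pro-osteoblast cells among 506 in Stroma2. The paths share their MSC start and many cells, so their values are set side by side and not compared.

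On the chondrocyte path, 6 of 12 members tested were called higher at the end than at the start and 0 lower, where 7.35% of 6789 genes were called higher and 6.29% lower. Of the 6, Ccnd1, Cdk1, Ube2c and Tyms passed the filter through the end of the path alone and are described without a test. Ccnd1 went from 9.38 and 2.11 CPM to 82.7 and 75.6. Cdkn1a went from 50.0 and 58.9 to 197 and 227 CPM (2.01 ± 0.28) and Ccnd2 from 103 and 90.5 to 222 and 225 (1.28 ± 0.23). Cdk1 had 1 count at the start and 31 at the end. The 4 cells with over 20 mitosis counts gave 9, 3, 4 and 6 of these 31. Ube2c, Tyms and Cdk1 were not called without the 4 cells, nor by DESeq2, where adjusted p lay between 0.108 and 0.388. The calls of Ccnd2 and Cdkn1a were made without the 4 cells too.

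On the adipocyte path, 3 of 9 members were called higher and 0 lower, where 8.71% and 3.56% of genes were. Cdkn1a went from 49.2 and 56.8 to 558 and 627 CPM, a log2 fold change of 3.67 ± 0.20 (adjusted p = 4.12e-31, edgeR). Pcna rose by 1.71 ± 0.33. Ccnd2 had 0.84 ± 0.25 (adjusted p = 0.0119, edgeR), lost with DESeq2 (adjusted p = 0.294) and with library sizes alone (adjusted p = 0.0687, edgeR). Of 20 other regulators 7 were called higher (8.71% of all genes), led by Myc (3.82 ± 0.20) and Gadd45b (3.66 ± 0.14). On the osteoblast path, 2 of 8 members were called higher and 0 lower, where 12.9% and 11.8% of genes were: Cdkn1a (2.43 ± 0.29) and Ccnd2 (1.42 ± 0.26). With library sizes alone Ccnd2 was not called there (0.67 ± 0.30, adjusted p = 0.0854, edgeR), and the median of all genes moved from 0 to −0.77. The split of calls went from 869 higher and 794 lower to 334 and 2186 on the osteoblast path, and from 614 and 251 to 448 and 599 on the adipocyte path. No mitosis member passed the filter on these paths.

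The rows that the filter did not pass held most of the cell cycle transcripts. Their mitosis sum was 2956 CPM in Stroma1 and 2863 in Stroma2, 29.5 and 35.7 times that of passing cells (100.1 and 80.3 CPM). Their replication sum was 5119 and 4853 CPM against 221 and 183, 23.1 and 26.5 times. The regulators together differed little, by ratios of 1.01 and 0.750. Of the rows, 54.7% and 62.8% had 2 or more mitosis counts, against 1.27% and 1.63% of passing cells. Thinned to 500 counts the shares were 27.8% and 30.6% against 0.375% and 0.381%. Of the rows with 2 or more mitosis counts, 301 of 320 (94.1%) and 1002 of 1052 (95.2%) also had 2 or more replication counts, and of passing cells 4 of 12 and 10 of 31 did. By library, not passing rows held 2723 to 3046 CPM of mitosis genes and passing cells 45.2 to 159.7. The ratio of the mitosis sums was 66.3 in library 1.1, 18.2 in 1.2, 66.2 in 2.1, 26.6 in 2.2 and 30.5 in 2.3, so without library 1.2 that of Stroma1 was 66.3 in place of 29.5. The ratio of the replication sums ran from 20.2 to 32.7. With each barcode counted once, 53.4% and 59.4% of not passing rows had 2 or more mitosis counts.

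All 38 members passed the filter between not passing and passing rows, 12 of them through the not passing rows alone. They were Hells, Uhrf1, Ccnb1, Ccna2, Cenpe, Cenpf, Cdc20, Plk1, Aurka, Aurkb, Bub1 and Nusap1. These 12 had to be high there, so their values are a description with no test. In this comparison 34 were called higher and 4 lower, where 35.0% and 34.3% of 11595 genes were called higher and lower. The 12 are among the 34. All 14 replication and all 19 mitosis genes were higher under TMM, RLE and library size scaling alike, which the filter had fixed for the 12. Of these genes only Cenpf, among the 12, was not called by DESeq2 (adjusted p = 0.151). The medians that follow include the 12. The replication genes ran from 3.02 for Pcna to 6.32 for Rrm2, a subunit of ribonucleotide reductase, with a median log2 fold change of 4.97, and the median of the mitosis genes was 4.89, or 4.77 with Cenpe at its bound, where the median of all genes was 0.04. Rrm2 stood at 626 and 455 CPM against 4.22 and 6.51. The helicase gene Mcm7 stood at 770 and 756 CPM against 41.0 and 35.5 (4.16 ± 0.19). Ccna2, the cyclin of S and G2 phase, had 627 and 1657 counts against 4 and 7. Aurka had 544 counts against 2 over both samples. Cenpe, a centromere motor, had 48 counts against 0, at least 9.54-fold higher with a floor of 3 counts over the passing cells of both samples. Cenpf moved least of the mitosis genes, with a log2 fold change of 1.64.

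The regulators went their own ways. Ccnd3 was higher in not passing rows, at 401 and 211 CPM against 130.8 and 109.8 (1.11 ± 0.20, adjusted p = 0.000245, edgeR). Cdkn1a was lower, at 63.6 and 41.4 against 234.5 and 224 (−2.33 ± 0.19, adjusted p = 1.67e-07, edgeR), and Ccnd2 was lower by 0.78 ± 0.16. Ccnd1 (−0.92 ± 0.34) and Cdkn1b (−0.66 ± 0.23) were also called lower, but DESeq2 gave them adjusted p of 0.199 and 0.135, and edgeR lost both calls under other settings as well, with adjusted p from 0.0531 to 0.0715. Of longer lists, 35 of 37 other replication genes passed the filter, 18 of them through the not passing rows alone, and 35 were called higher. Of 52 other mitosis genes 51 passed, 29 through those rows alone, and 50 were called higher, where 35.0% of all genes were. The licensing factor Cdc6 (mean 137.7 CPM in not passing rows against 1.28) and the flap nuclease Fen1 (311.5 against 5.14) were both among those 18. Their levels are given without a test. Of 21 other regulators 10 were higher and 7 lower, beside 35.0% and 34.3% of all genes, and nothing is read from these counts. Cdk6 stood at 3.26 ± 0.18, with Gadd45b at −3.84 ± 0.19 and the inhibitor Cdkn1c at −3.03 ± 0.24.

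**Figure D4:**
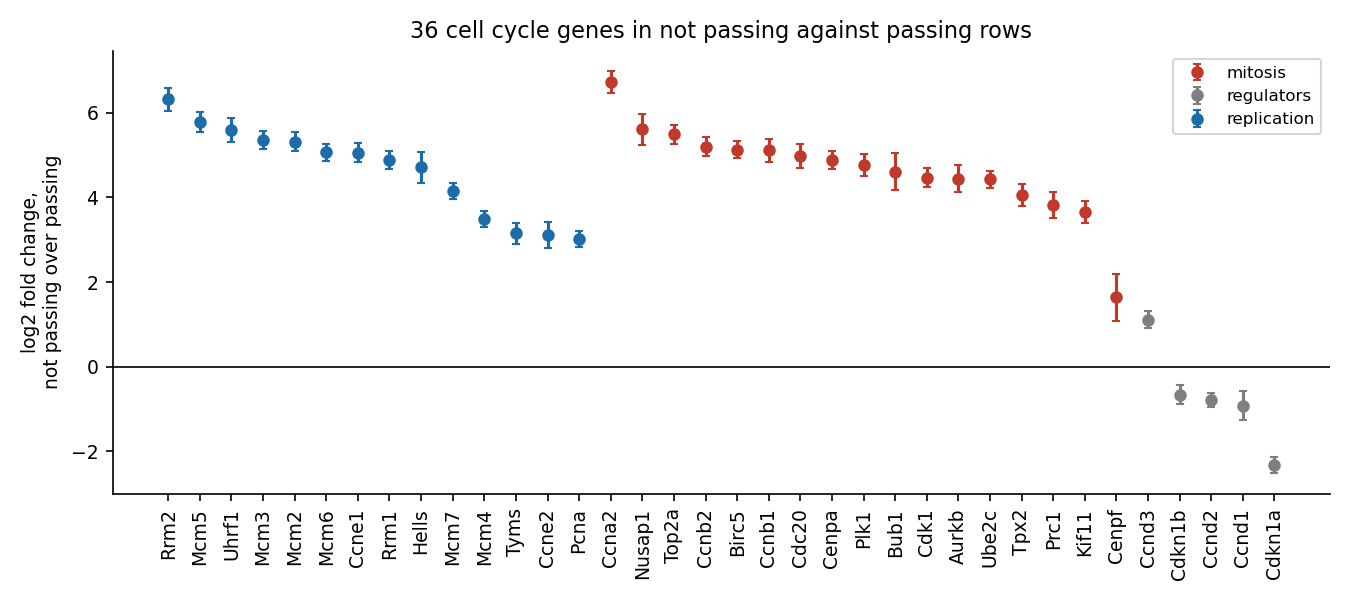
Log2 fold change of not passing over passing rows (edgeR, both samples, bars are standard errors) for the 14 replication genes, 17 mitosis genes and 5 regulators; Cenpe and Aurka, with 0 and 2 counts in passing cells, are left out. The replication and mitosis genes lie above 0, from 1.64 to 6.73, and 4 of the 5 regulators lie below it. For members that passed the filter through the not passing rows alone, that direction was fixed and the fold is no test.

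The sequence before the start is shown for some replication and mitosis genes that carry the letters these groups are known for. Genes of mitosis often hold TTTGAA (the cell cycle genes homology region) and CCAAT, and genes of replication hold E2F-type letters. Promoter windows of 280 bases, 250 before and 30 after the start, came from RefSeq (GRCm38.p6) and matched 31 of the 38 members. Both strands were searched, and matches may overlap. The 31 members have 36 windows, and a gene counts if any of its windows matches. The shares over all windows are per window, so the units differ. TTTGAA lay in the windows of 9 of 16 mitosis genes, 1 of 12 replication genes and 0 of 3 regulators, and in 17.2% of all 32851 windows. All 9 also held CCAAT, which 14 of 16 mitosis and 9 of 12 replication genes and 36.1% of all windows had. One of the E2F-type octamers TTTCCCGC, TTTGGCGC, TTTCGCGC or TTTGCCGC lay in 6 of 12 replication genes (Hells, Mcm3, Mcm5, Mcm6, Mcm7 and Uhrf1), in Cdk1 of the mitosis genes, and in 2.12% of all windows. A match is a description of letters and not of a bound site. The mitosis windows are shown for 4 of the 5 mitosis genes called in Pre-osteoblast/chondrocyte, with capitals for the letters searched, on either strand.
Ccnb2 (chr9:70421525-70421804, minus strand): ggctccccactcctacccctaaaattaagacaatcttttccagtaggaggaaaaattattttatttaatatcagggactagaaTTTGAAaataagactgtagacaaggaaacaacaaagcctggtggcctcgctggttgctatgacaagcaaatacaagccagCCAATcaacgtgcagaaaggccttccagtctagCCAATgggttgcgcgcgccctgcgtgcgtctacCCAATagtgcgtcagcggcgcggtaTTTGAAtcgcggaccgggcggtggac
Cdk1 (chr10:69352883-69353162, minus strand): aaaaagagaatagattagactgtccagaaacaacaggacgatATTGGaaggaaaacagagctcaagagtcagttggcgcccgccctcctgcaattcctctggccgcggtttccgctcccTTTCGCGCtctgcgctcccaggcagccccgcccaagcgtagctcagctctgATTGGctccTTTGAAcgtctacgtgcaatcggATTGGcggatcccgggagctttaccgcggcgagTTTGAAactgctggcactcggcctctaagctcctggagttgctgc
Top2a (chr11:99024160-99024439, minus strand): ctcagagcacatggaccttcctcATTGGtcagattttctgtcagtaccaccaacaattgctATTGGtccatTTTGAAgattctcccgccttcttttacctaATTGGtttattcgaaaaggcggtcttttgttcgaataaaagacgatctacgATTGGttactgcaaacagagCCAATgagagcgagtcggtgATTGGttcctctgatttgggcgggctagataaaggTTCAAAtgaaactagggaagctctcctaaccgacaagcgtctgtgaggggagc
Ube2c (chr2:164769679-164769958, plus strand): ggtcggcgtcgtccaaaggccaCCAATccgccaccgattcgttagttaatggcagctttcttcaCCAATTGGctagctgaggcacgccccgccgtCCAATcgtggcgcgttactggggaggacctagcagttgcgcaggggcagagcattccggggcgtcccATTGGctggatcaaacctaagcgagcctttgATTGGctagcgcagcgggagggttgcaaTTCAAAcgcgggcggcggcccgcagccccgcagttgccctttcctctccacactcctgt

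In these 4 windows the Ccnb2 promoter has 2 TTTGAA and 3 CCAAT matches, Cdk1 2 and 3 with 1 E2F-type match, Top2a 2 and 6, and Ube2c 1 and 6. For replication, Mcm5 and Mcm6 are shown, whose products are subunits of the MCM helicase. Both genes rose in not passing rows, by 5.78 ± 0.23 and 5.07 ± 0.20 on the log2 scale. Capitals mark the same letters.
Mcm5 (chr8:75109259-75109538, plus strand): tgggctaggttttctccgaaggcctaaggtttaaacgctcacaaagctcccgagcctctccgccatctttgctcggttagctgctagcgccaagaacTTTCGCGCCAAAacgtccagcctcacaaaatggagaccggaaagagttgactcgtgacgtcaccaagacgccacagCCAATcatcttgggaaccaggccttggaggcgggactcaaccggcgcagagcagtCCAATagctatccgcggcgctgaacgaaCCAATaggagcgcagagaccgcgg
Mcm6 (chr1:128359676-128359955, minus strand): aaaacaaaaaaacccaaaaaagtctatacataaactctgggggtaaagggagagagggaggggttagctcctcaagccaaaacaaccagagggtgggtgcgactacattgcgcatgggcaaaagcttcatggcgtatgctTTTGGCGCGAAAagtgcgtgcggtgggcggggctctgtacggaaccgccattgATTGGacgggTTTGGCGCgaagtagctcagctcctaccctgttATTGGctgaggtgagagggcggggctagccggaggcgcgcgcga

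Mcm5 holds 2 overlapping E2F-type matches and 3 CCAAT, and Mcm6 3 E2F-type matches and 2 CCAAT, and neither holds TTTGAA.

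The not passing rows were of several kinds. All passing and not passing rows were clustered with the cell cycle genes left out, and clusters were named from markers by a rule set after the clusters were seen. An erythroid-like cluster of 283 rows, with Slc4a1 and globin genes, was highest in the replication sum, at 7768 and 6774 CPM, and held 4265 and 4045 CPM of mitosis genes. Of its rows, 100.0% and 99.4% had 2 or more mitosis counts. Erythroid-like clusters held 48.5% of the mitosis counts of not passing rows in Stroma1 and 27.1% in Stroma2, and at a clustering resolution of 0.5 34.5% and 10.8%. Cluster 2, with 637 rows, stayed unnamed, and Rab38, Asb17 and Nefh led it. Kit, a blood progenitor marker of the lists, was among its top 10 genes. Car1 was the 1 erythroid marker enriched in it by the naming rule. At a resolution of 0.5, an unnamed cluster of 758 rows also had Rab38, Asb17 and Nefh among its top 10 genes. Its enriched erythroid markers were Car1, Car2, Ermap and Gata1. Cluster 2 gave 38.8% and 57.1% of the mitosis counts, the larger share in Stroma2, and held 2733 and 2822 CPM of mitosis genes and 4960 and 4902 of replication genes. Cluster 7, unnamed and led by Sdsl and Aaas, held 3474 and 3219 CPM of mitosis genes.

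The other named kinds were as follows. B-lineage-like rows had 2580 and 1230 CPM of mitosis genes, from 121 and 335 rows, with 26.4% and 14.9% of rows at 2 or more counts. Megakaryocyte-like rows numbered 8 and 12 and had 1537 and 3561 CPM. Myeloid-like rows had 841 and 1447 CPM, and endothelial-like rows 620.5 and 486.5. Osteoblast-like rows numbered 2 and 33 and had 437.8 and 1508 CPM of mitosis genes. Of those in Stroma2, 51.5% had 2 or more mitosis counts. Every one of these sums exceeded that of MSC in the same sample. The sort selects against blood and endothelial cells. Erythroid markers held 14942 and 11392 CPM in not passing rows, against 124 and 119 in passing cells, and B-lineage markers 1262 and 1669 against 53.0 and 90.3. Myeloid markers held 8326 and 1063 CPM against 221 and 107, and endothelial markers 1017 and 430 against 29.5 and 39.3. Plasma cell markers were at 283 and 161.4 CPM in not passing rows and 583 and 372 in passing cells.

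**Figure D5:**
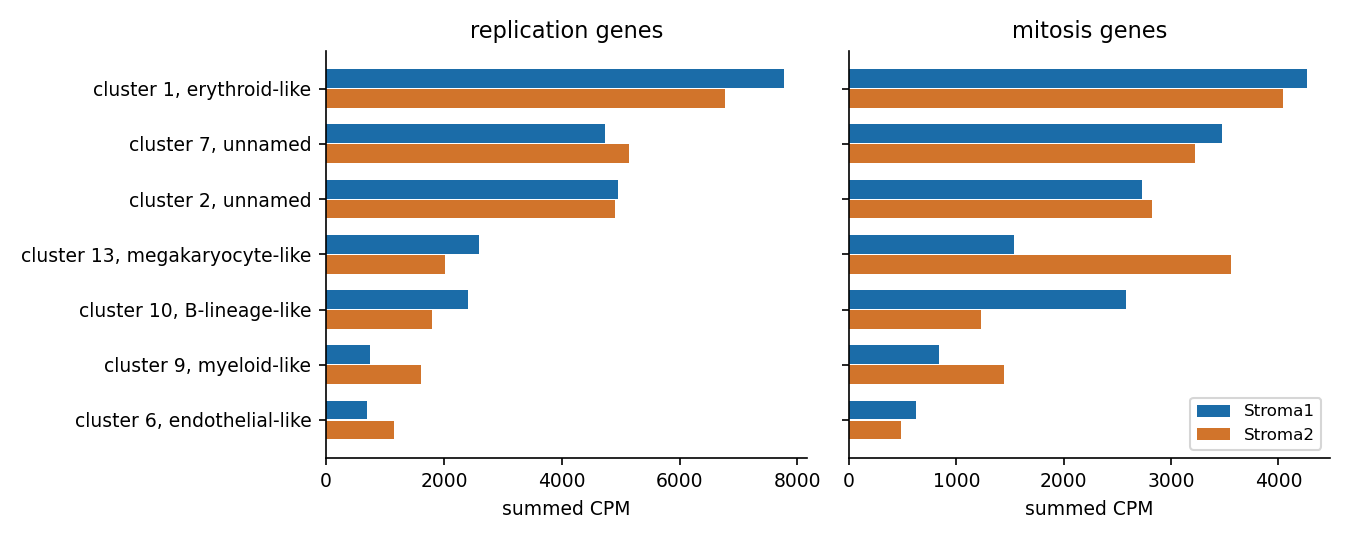
Summed CPM (linear axis from 0) of the replication and the mitosis genes in the not passing rows of 7 clusters, 1 bar for each sample. The erythroid-like cluster 1 is highest in both sums in both samples, and the endothelial-like cluster 6 holds 620.5 and 486.5 CPM of mitosis genes.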

How the data were processed

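Per the file headers, the deposited table holds counts per gene and barcode with the authors' columns of sample, library, filter and class, a mitochondrial fraction and, as fractions from 0 to 1, pseudotimes on 3 paths. Per the submitters' processing notes, Bowtie 1.1.1 and GRCm38 were used. For counting, the tool and the handling of molecular identifiers were left as not given in the sources used here. Counts were summed per sample and class, filter label or path part. A class needed 15 cells in each sample. These sums went into edgeR 4.0.16 under R 4.3.3, with TMM factors, filterByExpr with a minimum of 10, quasi-likelihood with terms for group and sample, and Benjamini-Hochberg adjustment over all genes kept. Both samples share 1 spread, and the method was tested on simulated data. CPM uses raw totals, and levels are not per length. A fold is printed for called members only. Of the longer lists up to 4 called genes per comparison, by fold and with both samples in 1 direction, were eligible. The members and lists were chosen with earlier results of these data known. Clusters came from scanpy 1.11.5 (Leiden, resolution 1.0). Other settings tried were RLE factors, DESeq2 1.42.0, no filter, no sample term, each sample left out, each barcode once per sample, cells without blood or endothelial markers (2 or more counts), cells without Scrublet calls, other share thresholds and thinning, and, chosen after seeing the data, library sizes alone and no cells with over 20 mitosis counts.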

Additional observations from a re-analysis of the deposited data

How the results depend on the processing

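Counts of members called changed by over 1.5 times in 22 of 198 settings across the comparisons. With the 4 cells of over 20 mitosis counts left out, 2 members were called higher in Pre-osteoblast/chondrocyte and 3 on the chondrocyte path. DESeq2 called 0 higher in Adipocyte progenitor, 1 higher in Pro-osteoblast, 3 higher on the chondrocyte path and 2 lower in not passing rows. With library sizes alone, 3 members were called higher in MSC, 1 in Osteoblast progenitor, 0 in Pro-osteoblast and 1 on the osteoblast path, and 8 lower in Pro-osteoblast and 3 on the osteoblast path. With RLE factors Pro-osteoblast had 1 higher and 4 lower, without the low-count filter 1 and 1, and the osteoblast path then had 5 higher. Leaving out cells with blood or endothelial markers gave 1 lower in Adipocyte progenitor and 1 higher in Pro-osteoblast, each barcode once gave 1 higher there, and a minimum of 30 cells 4 lower. Without the replicate block, which pairs the groups of a sample, 4 members were called lower in Pro-osteoblast, and the counts of members called in the other comparisons stayed within 1.5 times.

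Of the fold changes, Ccnd2 in Pro-osteoblast reversed, to −0.56 with library sizes alone and to −0.08 without the second sample, against 0.71 without the first. Values from 1 sample have no test. The mean share of Pre-osteoblast/chondrocyte cells with mitosis counts was 17.9% at 1 or more counts, 6.48% and 7.55% when thinned to 500 and 1000 counts, and 8.01% without the 4 cells, against 10.55%. In not passing rows it was 66.0% at 1 or more and 29.2% when thinned to 500, against 58.8%. The causes were not tested. The erythroid-like share of the mitosis counts of not passing rows averaged 22.7% and 24.5% at clustering resolutions of 0.5 and 2.0, against 37.8%. At 25 and 66 cells, counting error limits what the Pre-osteoblast/chondrocyte class can show.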

Other observations

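Rows without a filter label and with under 500 counts, 1729 in Stroma1 and 6687 in Stroma2, also held the members. Their medians were 146 and 145 counts per row. The replication sum was 789 and 1221 CPM and the mitosis sum 487 and 693 CPM, 4.30 and 5.33 times the replication sum of MSC and 10.1 and 11.3 times its mitosis sum. Mcm6 stood at 103 and 188 CPM, Cenpa at 103 and 105.4, and Ccnd1 at 15.6 and 9.06. Mitosis counts per replication count were 0.617 and 0.567 there, and 0.577 and 0.590 in not passing rows. In passing cells they were 0.452 and 0.439. Erythroid markers held 2499 and 2864 CPM in these rows, against 144 and 136 in MSC, and B-lineage markers 665 and 1697 against 67.2 and 119. Over all rows without a filter label, the authors' mitochondrial fraction weighted by counts came to 79.5% and 64.2%. The part of these in the sums was not tested.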
